A study of Mus musculus with 4 samples.

Results

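The loci described here are 3 chemokine regions of the mouse genome, taken from a table of 17576 loci of mouse embryonic fibroblasts (MEFs) treated with interferon-beta. Members were all rows that carry a transcript ID and overlap chr5:92748000-92796000 (Cxcl9, Cxcl10 and Cxcl11), chr11:81846000-81935000 (Ccl2, Ccl7, Ccl11, Ccl12 and Ccl8) or chr11:83338000-83345000 (Ccl5), in the mm9 build. This gave 10 loci of the 15883 that carry a transcript ID: the 9 chemokine genes and Art3, an ADP-ribosyltransferase family gene that is no chemokine and whose span covers Cxcl10 and Cxcl11. The rule used positions, not values, but the regions were chosen with earlier results of these data known. Their shares beside those of all loci are therefore descriptive.

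The cells were C57BL/6 MEFs from mice in which the H3f3b gene had been replaced by a cDNA of histone H3.3 with an HA tag, so naive and pretreated cells alike carry the tagged histone. The naive group had had no pretreatment and the pretreated group had, and both were then given interferon-beta at 100 U/ml for 1 h; the agent, length and washout of the pretreatment are not given in the sources used here, and nor is whether the cells came from more than 1 embryo. Each group is 1 library of polyA RNA, so no value has a replicate error, no difference has a replicate check, and fewer cells of a type cannot be told apart from less RNA per cell. The corresponding groups at 0 h were not analysed here, so the response to interferon within each state is not described.

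Chemokines are small secreted proteins that guide leukocytes by binding receptors on their surface. Cxcl9, Cxcl10 and Cxcl11 are ligands of the receptor Cxcr3 on activated T cells and natural killer cells and are classical targets of interferon signalling. Ccl2, Ccl7, Ccl12 and Ccl8 attract monocytes, Ccl11 (eotaxin) attracts eosinophils, and Ccl5 (RANTES) attracts T cells and monocytes; in fibroblasts Ccl2 and Ccl7 are known as targets of inflammatory NF-kB signalling.

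The interferon-linked chemokines Cxcl10 and Ccl5 stood higher in pretreated than in naive cells, whereas the monocyte chemokines Ccl2 and Ccl7 stood lower, from very high naive levels. Per FPKM value (fragments mapped per unit of transcript length and of library size), Cxcl10 was 4.52-fold and Ccl5 8.45-fold higher, and Ccl7 was 4.04-fold and Ccl2 2.34-fold lower. At low levels, Ccl8 was higher and Ccl11 lower. Cxcl9, Cxcl11, Ccl12 and Art3 stayed under 1 FPKM in both libraries.

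Differences were taken as log2(FPKM + 1), pretreated minus naive, a scale that understates the change of low loci. Loci with a mean of at least 1 FPKM over the 2 libraries were compared, and a difference of at least 2-fold on this scale was counted. Of the 10 members, 6 passed the minimum. Of these, 3 were at least 2-fold higher (Cxcl10, Ccl5 and Ccl8), against 2.83% of all 10228 loci compared, and 3 were at least 2-fold lower (Ccl2, Ccl7 and Ccl11), against 7.12%. Among the loci with a transcript ID alone, these background shares were 2.41% and 4.24%, and over all loci without the minimum 1.79% and 4.95%. Ccl8 passed the minimum only through its pretreated value and Ccl11 only through its naive value, so that their place on these sides follows in part from the minimum. Over all 10 members the median difference was 0.16, against -0.16 over all loci compared, and the members' median hides the opposite directions of the chemokines.

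In the authors' deposited table, 7 of the 10 members were tested and 5 were called at a q-value under 0.05. Cxcl10, Ccl5 and Ccl8 were called higher, against 3.91% of the 13388 loci tested, and Ccl7 and Ccl11 were called lower, against 11.9%. Ccl2 was not called. Those p- and q-values compare the reads of 2 libraries, not the conditions.

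**Figure D1:**
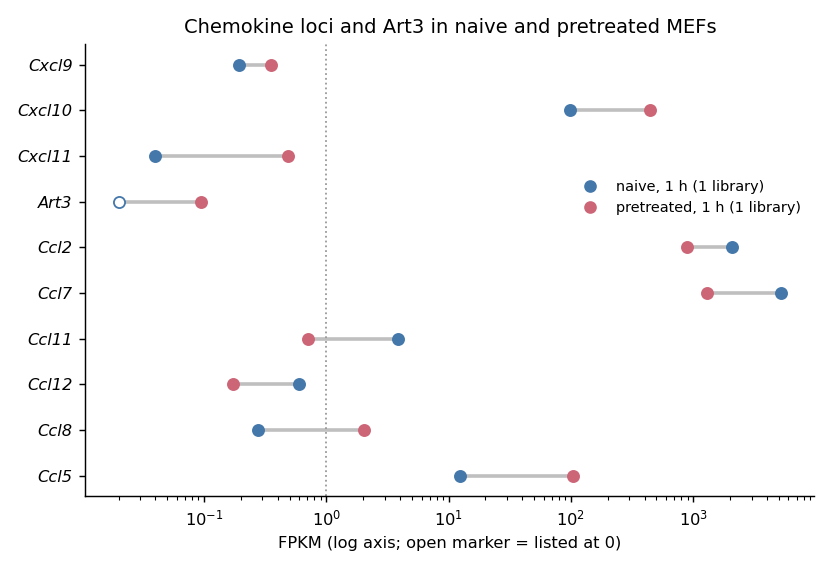
FPKM of the 10 members on a log axis in the naive and the pretreated library at 1 h, 1 library each; the dotted line marks 1 FPKM and the open marker a value listed at 0. Cxcl10 and Ccl5 lie to the right in pretreated cells (447 and 104 FPKM), Ccl2 and Ccl7 to the left (893 and 1299 FPKM).

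The promoter of Cxcl10 is shown because Cxcl10 is the most abundant of the members that were higher, together with that of its neighbour Cxcl9, which remained near 0. Each run is the 250 bases before the start site in RefSeq's GRCm38.p6 table, which held 5 of the 10 members (Cxcl9, Cxcl10, Ccl8, Ccl12 and Art3); that build differs from the mm9 build of the deposited table. Cxcl10 is at chr5:92348890-92349139 and Cxcl9 at chr5:92328080-92328329, both on the minus strand and both written 5′ to 3′ toward the gene. Capitals mark matches to the core of the interferon-stimulated response element (ISRE, a pair of GAAA with 2 bases between them), to the gamma-activated site (GAS, TTCNNNGAA) or to the kB consensus of NF-kB, searched on both strands.
Cxcl10: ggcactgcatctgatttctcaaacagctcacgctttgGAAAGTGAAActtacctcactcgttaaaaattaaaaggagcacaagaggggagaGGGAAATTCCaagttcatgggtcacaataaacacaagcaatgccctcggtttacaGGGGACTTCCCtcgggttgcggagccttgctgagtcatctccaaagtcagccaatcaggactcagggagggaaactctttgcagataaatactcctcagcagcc
Cxcl9: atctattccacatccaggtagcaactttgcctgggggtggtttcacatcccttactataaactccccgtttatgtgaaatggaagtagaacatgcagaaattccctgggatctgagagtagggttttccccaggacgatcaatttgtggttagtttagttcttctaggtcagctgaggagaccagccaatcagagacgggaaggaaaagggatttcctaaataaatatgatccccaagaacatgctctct

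The Cxcl10 window held an ISRE core at bases -213 to -204 from the start site, a kB match at -159 to -150, and 2 overlapping kB matches from -104 to -94. Of 32851 promoter windows of the same length, 2.98% held an ISRE core, 7.25% a kB match, 7.02% a GAS match and 0.164% both an ISRE core and a kB match. The letters of these 3 motifs were not found in the windows of Cxcl9, Ccl8 or Ccl12. A match describes the sequence and is not evidence of binding.

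Cxcl10, the T-cell attractant, had 98.8 FPKM in the naive library and 447 FPKM in the pretreated one. Pretreated cells were thus the high ones, by 2.17 on the log2(FPKM + 1) scale, which placed Cxcl10 at rank 87 of the 10228 loci by increase. By level it moved from rank 730 to rank 254 of 15859 loci with a transcript ID and an estimate. The authors' deposited table gives it a q-value of 3.37e-06.

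The Cxcl10 row (XLOC_020430, transcripts uc008ycz.1 and uc008yda.1) is not fixed by its coordinates. It shares the span from 92760867 to 92843653 on chromosome 5 with 2 other rows, XLOC_020431 and XLOC_019683, and this span is that of Art3. Serial numbers on chromosome 5 form a block for each strand, with 3 of 672 named loci in the block of the other strand, and the 443 singly placed loci of the second block followed their positions with 0 exceptions. By strand, XLOC_019683 was read as Art3, and by serial order XLOC_020430 was read as Cxcl10 and XLOC_020431 as Cxcl11. Were that order wrong, the values of Cxcl10 and Cxcl11 would be exchanged. Whether reads were counted by strand is not given in the sources used here, so reads of Art3 and of the genes opposite it may not be separable.

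Cxcl11, a further Cxcr3 ligand, had 0.0401 FPKM in the naive library and 0.488 FPKM in the pretreated one. Its difference was 0.52 on the log2(FPKM + 1) scale, while the plain ratio was 12.2. Cxcl9, the remaining Cxcr3 ligand (chr5:92750357-92757105), had 0.194 FPKM in the naive library and 0.353 FPKM in the pretreated one, a difference of 0.18. Art3 was listed at 0 in naive cells and had 0.0944 FPKM in pretreated cells. These 3 loci were left untested in the authors' deposited table, and within the Cxcr3 ligands Cxcl10 alone reached 1 FPKM in either library.

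Ccl5, the T-cell and monocyte attractant, which lies at chr11:83339281-83344020, had 12.3 FPKM in the naive library and 104 FPKM in the pretreated one. It had the largest increase of the members, 2.98 on the log2(FPKM + 1) scale, at rank 49 of the 10228 loci. The authors' deposited table lists a q-value of 6.92e-13. By level Ccl5 moved from rank 3161 to rank 675 of 15859.

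The 5 loci with a transcript ID nearest to Ccl5 in both log2 levels, over these 2 libraries, were Ifi44 (10.6 FPKM in the naive library and 118 FPKM in the pretreated one), Mx1 (17.6 and 91.0 FPKM), Gm4951 (10.6 and 73.0 FPKM), and XLOC_016858 and XLOC_025015, which were not paired with a symbol. Their distance to Ccl5 ran from 0.27 for Ifi44 to 0.54 for Gm4951 in log2 units.

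**Figure D2:**
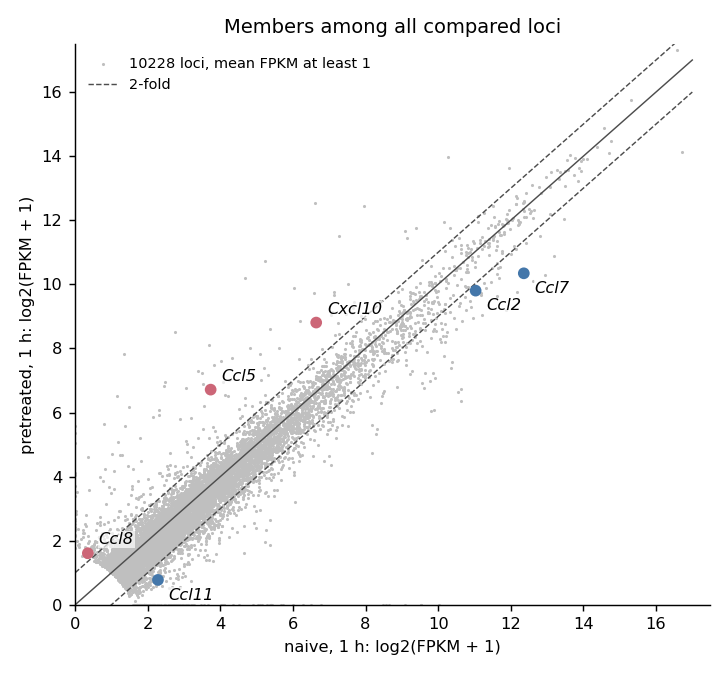
Level in the pretreated against the naive library, both as log2(FPKM + 1), for the 10228 loci with a mean of at least 1 FPKM; dashed lines mark 2-fold. Cxcl10, Ccl5 and Ccl8 lie above the upper line, and Ccl2, Ccl7 and Ccl11 below the lower line.

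Ccl7, a monocyte chemokine at chr11:81859214-81861025, was the most abundant member in both libraries, with 5252 FPKM in the naive library and 1299 FPKM in the pretreated one. The naive library was the high one, and the difference was -2.01 on the log2(FPKM + 1) scale, rank 142 of 10228 by decrease. The authors' deposited table gives a q-value of 0.0101. By level Ccl7 was rank 25 of 15859 in naive and rank 114 in pretreated cells, so it remained among the abundant transcripts.

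Ccl2, the principal monocyte attractant (MCP-1), lies at chr11:81849079-81850954, with 8259 bp between it and Ccl7. It had 2093 FPKM in the naive library and 893 FPKM in the pretreated one. The difference was -1.23, rank 469 of 10228 by decrease. The authors' deposited table gives a q-value of 0.0834, above the threshold of 0.05. Ccl7 stood at 2.51 times Ccl2 in naive and 1.46 times in pretreated cells, a comparison of FPKM levels, which are scaled by length.

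Ccl11, the eosinophil chemokine, which lies at chr11:81871334-81876457, had 3.86 FPKM in the naive library and 0.713 FPKM in the pretreated one. Its difference was -1.51 on the log2(FPKM + 1) scale, and the authors' deposited table gives a q-value of 0.00197. Ccl12 (MCP-5, chr11:81915347-81916901) had 0.593 FPKM in the naive library and 0.172 FPKM in the pretreated one, a difference of -0.44, with a q-value of 0.479 in the authors' deposited table. Ccl8 (MCP-2, chr11:81928687-81930301), the last gene of the row and 11785 bp beyond Ccl12, had 0.275 FPKM in the naive library and 2.05 FPKM in the pretreated one. Its difference was 1.26, with a q-value of 0.0297 in the authors' deposited table. In this region Ccl2, Ccl7 and Ccl11 were thus lower by 2-fold or more, Ccl8 was higher, and Ccl12 was under the minimum; Ccl11, Ccl12 and Ccl8 had low FPKM values in both libraries.

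How few reads the lowest of these values may rest on was read from their ratios. Among 1109 untested loci with at most 1 transcript ID and a value above 0 in both libraries, the most frequent log2 ratio of pretreated to naive FPKM was 1.022 (83 loci), followed by 0.022 (53 loci). A direct reading used loci listed at 0 in 1 library, where the authors' deposited table lists a p-value that points to 1 to 4 whole reads. For 14 spans of the pretreated library, the naive value of 1 read was interpolated to the same span. There 1 read was worth more in the pretreated library by a median of 1.02 on the log2 scale. With 1 pretreated read worth 2.03 naive reads, the ratio of Cxcl11 corresponds to 6 pretreated reads and 1 naive read. That of Ccl8 corresponds to 11 and 3, that of Ccl12 to 1 and 7, and that of Ccl11 to 1 and 11. Each fits within 0.3%. These are the smallest numbers that give the ratios, and common multiples of them give the same ratios. At these smallest numbers the exact 95% Clopper-Pearson interval of the FPKM ratio, pretreated over naive, would run from 1.48 to 560 for Cxcl11 and from 1.97 to 41.6 for Ccl8. It would run from 0.00644 to 2.26 for Ccl12, which includes 1. For Ccl11 it would run from 0.00429 to 1.27, but 1 and 11 reads are doubtful there. They would make 1 pretreated read worth 0.713 FPKM at Ccl11, against 0.172 FPKM at Ccl12, with transcript lengths not compared. The authors' deposited table lists a p-value of 8.05e-05 for Ccl11 and of 0.256 for Ccl12. The reads behind Ccl11 may thus be a multiple, and its interval is not read as including 1. The intervals cover counting error only and would be narrower for multiples.

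Summed over Ccl2 and Ccl7, naive cells had 7345 FPKM and pretreated cells 2191 FPKM. Summed over Cxcl10 and Ccl5, naive cells had 111 FPKM and pretreated cells 551 FPKM. The ratio of the first sum to the second was 66.1 in naive and 3.98 in pretreated cells. Ccl7 alone was 53.2 times Cxcl10 in naive cells and 2.91 times in pretreated cells. The genes summed were picked for their levels and grouped by the direction of their difference, so the fall of the ratio follows from the grouping. The ratios describe this pair of libraries and have no test. The order of levels in naive cells was Ccl7, Ccl2, Cxcl10, Ccl5, Ccl11, Ccl12, Ccl8, Cxcl9, Cxcl11 and Art3. In pretreated cells it was Ccl7, Ccl2, Cxcl10, Ccl5, Ccl8, Ccl11, Cxcl11, Cxcl9, Ccl12 and Art3, so the 4 most abundant kept their order. With 1 library a group, no neighbours in either order can be shown to differ.

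The genes around the 3 regions were compared next, as the 5 nearest loci with a transcript ID on each side of each region. Of these 30 loci, 18 passed the minimum, of which 2 were lower by 2-fold or more, against 7.12% of all loci compared, and 0 higher, against 2.83%. With so few neighbours these counts do not set the flanks apart from other loci. Around Cxcl9, Cxcl10 and Cxcl11, the nearest neighbours Sdad1 (8.14 FPKM in the naive library and 10.4 FPKM in the pretreated one) and Nup54 (9.33 and 8.29 FPKM) differed by less than 2-fold, and U90926 was lower (2.30 and 0.180 FPKM). Around Ccl5, Heatr9 was listed at 0 in naive cells and had 0.101 FPKM in pretreated cells, and the chemokine gene Ccl9 had 1.66 and 1.45 FPKM. Wfdc17, 173538 bp to the right of Ccl5, was lower (5.01 FPKM in the naive library and 0.434 FPKM in the pretreated one). Around the Ccl2 to Ccl8 region, all 6 neighbours past the minimum differed by less than 2-fold, the nearest of the 10 being 602449 bp away.

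**Figure D3:**
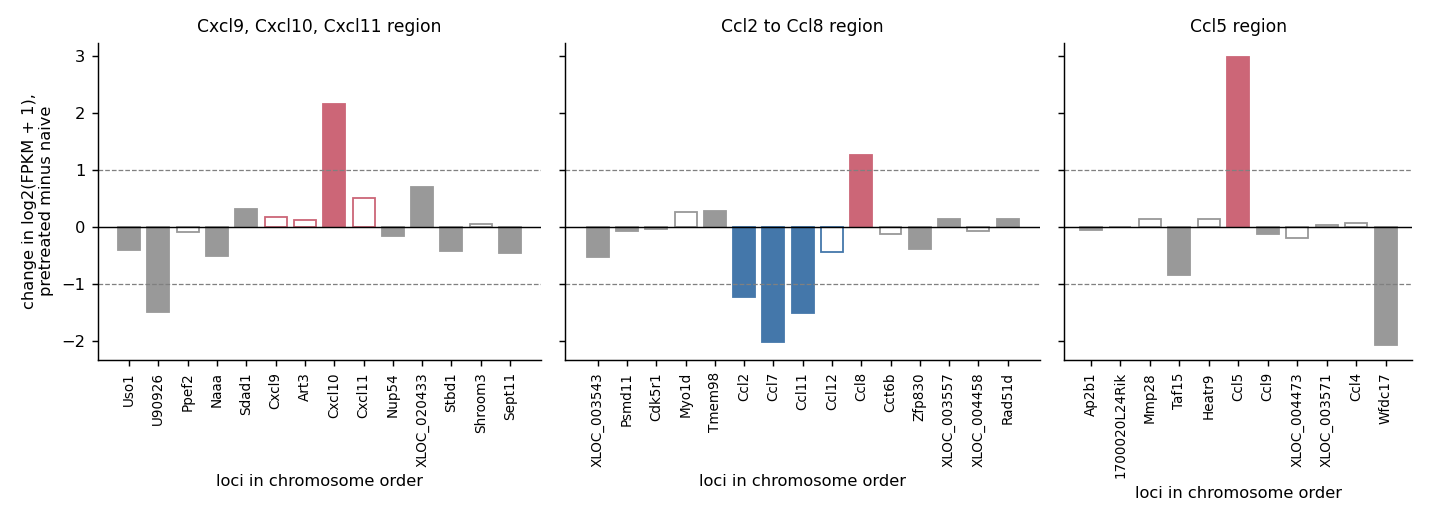
Difference in log2(FPKM + 1), pretreated minus naive, for the members of each region (coloured) and the 5 nearest loci with a transcript ID on each side (grey), in chromosome order but not to distance; open bars mark a mean under 1 FPKM and dashed lines 2-fold. Cxcl10 and Ccl5 stand above all plotted neighbours of their regions, and Ccl2, Ccl7 and Ccl11 are lower side by side, with Ccl8 higher.

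Of 19 other chemokine genes drawn up as a list, 9 were paired with a locus and 6 passed the minimum. Of these 6, 2 were lower by 2-fold or more, against 7.12% of all loci compared, and 0 higher, against 2.83%. Cxcl5, a neutrophil attractant, had 346 FPKM in the naive library and 78.4 FPKM in the pretreated one, a difference of -2.13 with a q-value of 4.09e-05 in the authors' deposited table. Cxcl1, a further neutrophil attractant, had 29.7 FPKM in the naive library and 4.92 FPKM in the pretreated one, a difference of -2.37 with a q-value of 9.14e-08 in the authors' deposited table. Cxcl12, a homeostatic chemokine of fibroblasts, had 722 FPKM in the naive library and 769 FPKM in the pretreated one, a difference of 0.09. Cx3cl1, Ccl9 and Ccl25 lay between 1.45 and 2.81 FPKM in both libraries and differed by less than 2-fold. Ccl4, Cxcl14 and Ccl20 stayed under 1 FPKM.

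Of 8 chemokine receptor genes, 2 were paired. Cxcr2, the receptor of Cxcl1 and Cxcl5, had 10.1 FPKM in the naive library and 6.80 FPKM in the pretreated one, and Cxcr4, the receptor of Cxcl12, was at 0.0923 FPKM in the naive library and at 0 in the pretreated one.

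Of the 9 genes of interferon and NF-kB signalling reported here, which are not the whole list, 7 were paired and passed the minimum, and 1 of these was lower by 2-fold or more, against 7.12% of all loci compared. Stat2 and Irf9, transcription factors that act downstream of interferon receptors, were higher by less than 2-fold. Stat2 had 31.5 FPKM in the naive library and 55.4 FPKM in the pretreated one, and Irf9 had 30.8 and 58.2 FPKM, with q-values of 0.0031 and 0.00963 in the authors' deposited table. Irf1, a transcription factor induced early by interferon, had 555 FPKM in the naive library and 263 FPKM in the pretreated one, a difference of -1.08, with a q-value of 0.117 in the authors' deposited table. The NF-kB subunits Rela (18.7 and 23.0 FPKM) and Nfkb1 (3.53 and 3.61 FPKM), the NF-kB inhibitor Nfkbia (12.8 and 19.0 FPKM) and the receptor chain Ifnar2 (5.13 and 5.38 FPKM) differed by less than 2-fold.

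**Figure D4:**
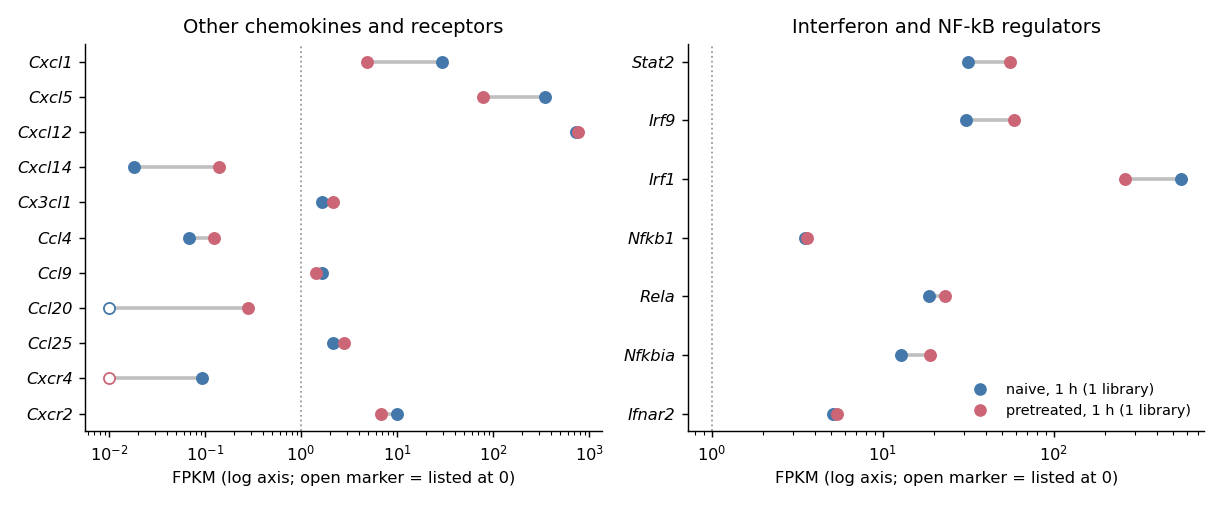
FPKM on log axes in the naive and the pretreated library at 1 h, 1 library each, of the listed chemokines, receptors and regulators that were paired with a locus; the dotted line marks 1 FPKM and open markers values listed at 0. Cxcl1, Cxcl5 and Irf1 lie to the left in pretreated cells, Stat2 and Irf9 to the right, and Cxcl12 is nearly at the same level (722 and 769 FPKM).

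The fibroblast label was checked against marker genes. Of 9 fibroblast markers, 7 were paired: Vim (917 FPKM in the naive library and 704 FPKM in the pretreated one), Col1a2 (521 and 293 FPKM), Col3a1 (111 and 69.1 FPKM), Pdgfrb (45.0 and 47.8 FPKM), Dcn (42.9 and 29.7 FPKM) and Pdgfra (6.80 and 7.61 FPKM) were present, and Thy1 was near 0 (0.144 and 0.293 FPKM). The paired markers summed to 1644 FPKM in the naive library and 1152 FPKM in the pretreated one. Of the 6 past the minimum, 0 differed by 2-fold, against 2.83% higher and 7.12% lower of all loci compared. With so few markers this count does not set them apart from other loci. Of 7 leukocyte and macrophage markers, which matter because leukocytes also produce chemokines, 2 were paired and summed to 0.836 FPKM in the naive library and 1.11 FPKM in the pretreated one (Cd68 at 0.788 and 1.09 FPKM, Csf1r at 0.0479 and 0.0168 FPKM). Of 2 endothelial markers 1 was paired, Pecam1, with 0.0629 FPKM in the naive library and 0.0204 FPKM in the pretreated one. Of 3 epithelial markers 1 was paired, Cdh1, at 1.30 and 1.33 FPKM. The part of other cells in the chemokine differences was tested no further.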

How the data were processed

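PolyA RNA of MEFs was sequenced by the authors; the series is titled RNA-Seq, while the samples' description reads scTSS-seq, and which holds for the deposited values is not given in the sources used here. Per the submitters' processing notes, the tools were TopHat and Cufflinks 1.2.1 and the build mm9; their settings, the annotation and any scaling between libraries are not given in the sources used here. The deposited table gives, per the file headers, an FPKM value for each of the 2 libraries at 1 h and a p-value and q-value of the authors' comparison. Absolute depth is not given; from the size of 1 read, the total behind the pretreated FPKM was 0.492 times the naive total, which is the relative depth if no other scaling was applied.

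The members and lists were chosen with earlier results of these data known, and 1 listed gene is not reported here. Deposited starts were raised by 1. Loci were paired with symbols where their span equalled that of a GENCODE M21 or RefSeq gene (GRCm38) within 10 bp at a distance shared by at least 3 of the 10 loci on each side, or where 1 end did so and the other lay within 10% of the span. This named 10054 of 15883 loci, of which 3834 by 1 end (among those named here, Stat2, Irf9, Col1a2, Pdgfra and Cdh1). All 10 members are named, and so are neighbours past 2-fold and the 5 loci nearest to the most changed member; Sdad1, Nup54 and Heatr9 were added as adjacent genes after their values were seen. With 1 library per group no test was run. Alternatives were a pseudocount of 0.1, no minimum, a minimum of 5 FPKM, a 4-fold threshold and centring on the median. Scripts used Python 3.11.15 with pandas 2.3.3 and scipy 1.17.1 and were tested on simulated data.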

Additional observations from a re-analysis of the deposited data

How the results depend on the processing

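The counts of 3 higher and 3 lower members were the same with a pseudocount of 0.1, without a minimum and after centring on the median of -0.16. A minimum of 5 FPKM left 2 higher and 2 lower members, since Ccl8 and Ccl11 drop out. A 4-fold threshold left 2 higher members and 1 lower member, Ccl7. Among these alternatives, the share over all loci was taken only without a minimum, at 1.79% higher and 4.95% lower. Under the others the counts of members have no share to be set against. The median difference of the members was 0.79 with a pseudocount of 0.1, and 0.31 after centring, against 0.16. A pseudocount of 0.1 moved 5 members with low values by more than 1.5-fold: Ccl8 to 2.52, Ccl11 to -2.28, Cxcl11 to 2.07, Ccl12 to -1.35 and Art3 to 0.96. No direction of a member reversed under these alternatives. Leaving out a replicate was not possible. No paired analysis was possible because a group holds a single library, so culture and pretreatment cannot be told apart. Depth limits the loci under 1 FPKM in either library, where few reads may set a value.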
